A study of Mus musculus with 16 samples.

Results

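The sterol synthesis, uptake and SREBP2 control genes are a set of 31 named mouse genes, taken from the deposited expression table by gene symbol, of 24091 genes in all. They comprise 18 enzymes of cholesterol synthesis, 4 genes of the SREBP2 switch, 5 genes of sterol transport, esterification and receptor turnover, and 4 genes of sterol efflux and its liver X receptor control. All 31 were found, and 29 had a mean TPM (transcripts scaled for length and library total) of at least 1 over the 9 RNA libraries, the level required for testing, which 12155 genes reached. Abca1 and Abcg1, both efflux genes, did not reach it and are described by their values.

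Cells make cholesterol from acetyl-CoA through mevalonate, isoprenoid pyrophosphates, squalene and lanosterol. The transcription factor SREBP2, held in the endoplasmic reticulum by its escort SCAP and the INSIG retention proteins while sterols are plentiful, is released when sterols fall and switches on most of these enzymes, and INSIG1 is itself one of its targets. Sterol excess acts on the other side through oxysterols and the liver X receptors, which raise the exporters ABCA1 and ABCG1, while SOAT1 stores surplus cholesterol as ester. The intestinal epithelium both makes cholesterol and takes it up from the lumen and the blood.

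The libraries came from caecal epithelial cells of C57BL/6 mice, released with DTT and EDTA and then Dispase, with no sort described. There were 3 groups of 3 libraries: ampicillin with tributyrin gavage, ampicillin with mock gavage, and vehicle with mock gavage. The study asks how the gut microbiota and butyrate bear on histone butyrylation and gene expression, and tributyrin is a triglyceride that releases butyrate. All groups drank Splenda at 10 g/L for 7 days, both ampicillin groups with ampicillin at 1 g/L in it, and the gavage, tributyrin or 25% glycerol as the mock, was given on day 7, 6 hours before harvest. The tributyrin dose and the liquid it was given in are not stated in the sources used here, and no group analysed here received tributyrin without ampicillin. The labels do not say that replicate libraries stem from separate mice, so the p-values reflect the spread of these libraries alone, which may be technical. Another 7 chromatin and input samples were not analysed here.

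The libraries listed 17242 to 17722 genes above 0 TPM, and replicate libraries correlated at r = 0.976 to 0.981 across tested genes. TPM keeps no depth, so the number of reads behind each value is unknown. Summed TPM of 8 epithelial markers (Epcam, Cdh1, Vil1, Krt8, Krt18, Krt20, Cldn7 and Cdx1) was 8517 to 8718 with ampicillin and tributyrin, 7664 to 8054 with ampicillin and mock gavage, and 9597 to 10906 with vehicle. The summed fibroblast and smooth muscle markers stayed at or below 0.417 TPM in every library. The 10 myeloid markers summed to 29.0 to 40.5 TPM with tributyrin and 33.6 to 40.2 TPM with ampicillin and mock gavage. With vehicle they summed to 64.6 to 75.9 TPM. The sum was carried by C1qa and Cd14, and Adgre1, C1qb and C1qc were at or near 0. Cd68 averaged 2.22, 1.87 and 1.65 TPM and Lyz2 1.64, 1.80 and 1.43 TPM in that group order, so both were lowest with vehicle. The erythroid markers, nearly all Hbb-bs, summed to 37.6 to 51.4 TPM with tributyrin, 5.74 to 13.8 TPM with ampicillin and mock gavage, and 2.88 to 8.94 TPM with vehicle. The 6 lymphocyte markers summed to 11.3 to 17.5 TPM with tributyrin, 6.47 to 10.1 TPM with ampicillin and mock gavage and 8.12 to 9.08 TPM with vehicle. Vehicle replicate 2 carried 344.7 TPM of the ileal gene Fabp6, against at most 53.4 TPM in any other library. The part of these cells in the results below was not tested, and in bulk RNA fewer cells of a type cannot be told apart from less RNA per cell.

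Tributyrin given to ampicillin-treated mice was followed by lower transcript levels along most of the cholesterol synthesis pathway. Of the 29 members tested, 18 fell and 1 rose in the tributyrin libraries relative to the mock-gavaged ampicillin libraries (limma on log2(TPM + 1), Benjamini-Hochberg adjusted p under 0.05 over all 12155 genes), where 7.54% of all genes tested fell and 15.6% rose. Of all called genes 67.5% were higher, against 49.8% with each library shifted to the same median and 47.1% after quantile normalization, and 18 members fell under both of those scalings. Among the 18 synthesis enzymes, 14 fell and none rose. Their median log2 fold change was −0.64, beside 0.05 over all genes tested. The tributyrin and the mock-gavaged ampicillin libraries did not overlap for 20 members that were lower and 2 that were higher, where 15.3% of all genes tested were lower and 27.3% higher without overlap. The 18 synthesis transcripts summed to 783 ± 21.3 TPM in the tributyrin libraries and 1187 ± 59.6 TPM in the mock-gavaged ampicillin libraries (SD, n = 3 each), with vehicle libraries at 1040.4 ± 93.4 TPM.

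**Figure D1:**
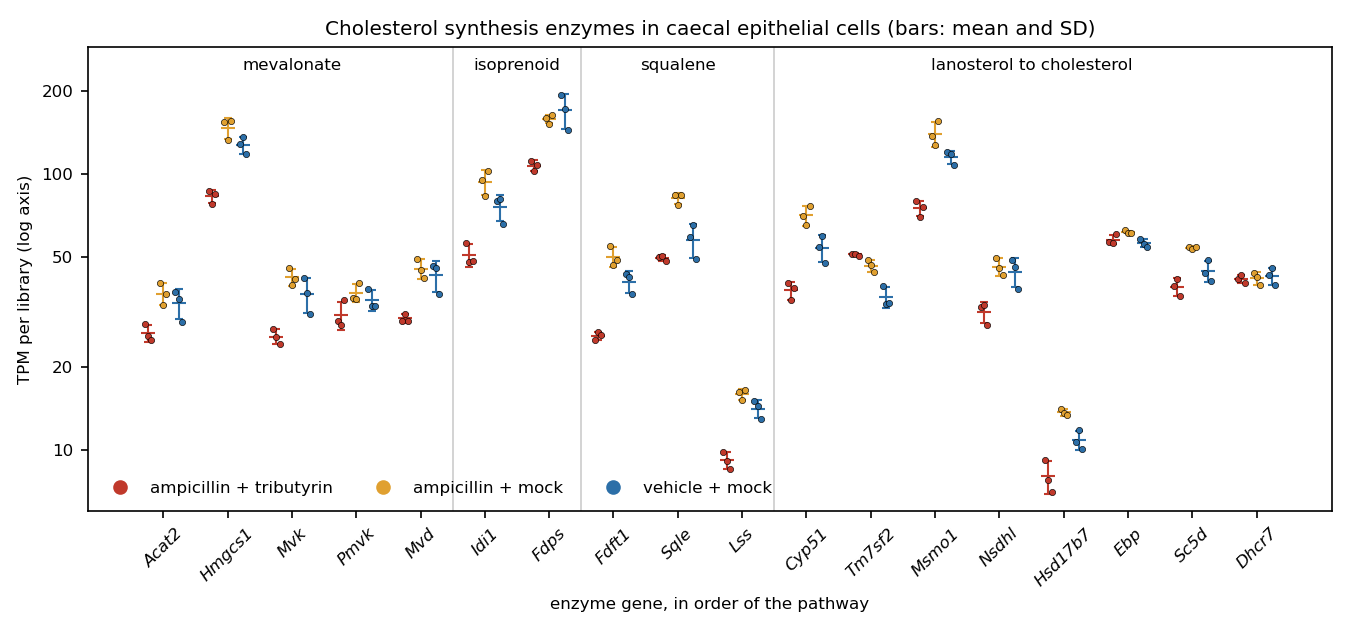
TPM of the 18 synthesis enzymes in each library (points, log axis) with mean and SD of the 3 libraries of a group, in pathway order. The tributyrin libraries lie below every other library for 12 of the 18 genes and above every other library for Tm7sf2.

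At the mevalonate end, 4 of 5 genes fell, where 7.54% of all genes tested fell. Hmgcs1, which condenses acetyl-CoA with acetoacetyl-CoA ahead of mevalonate and lies at chr13:119690351-119708260 (mm10, whole gene), had 86.7, 78.3 and 84.7 TPM with tributyrin, against 155, 133 and 156 TPM with ampicillin and mock gavage, and 128, 136 and 118 TPM with vehicle. The tributyrin libraries were the lowest 3 of the 9, and the log2 fold change against ampicillin with mock gavage was −0.82 ± 0.079 (SE, limma adjusted p = 0.000553). Mvk, mevalonate kinase, averaged 25.8 ± 1.62 TPM with tributyrin, 42.5 ± 3.03 TPM with ampicillin and mock gavage and 36.7 ± 5.43 TPM with vehicle (SD, n = 3 each). Mvd, the decarboxylase that makes isopentenyl pyrophosphate, averaged 30.01 ± 1.07 TPM with tributyrin, 45.4 ± 3.69 TPM with ampicillin and mock gavage and 43.0 ± 5.52 TPM with vehicle. Acat2, the acetoacetyl-CoA thiolase of the entry step, averaged 26.6 ± 1.87 TPM with tributyrin, 36.9 ± 3.32 TPM with ampicillin and mock gavage and 34.1 ± 4.32 TPM with vehicle. These changes against ampicillin with mock gavage were −0.70 for Mvk, −0.58 for Mvd and −0.46 for Acat2 on the log2 scale. The Acat2 call was lost without ampicillin replicate 1 or tributyrin replicate 2 (adjusted p = 0.0534 and 0.0535). Pmvk, phosphomevalonate kinase, which acts between Mvk and Mvd, averaged 30.9 ± 3.64 TPM with tributyrin and 37.1 ± 2.76 TPM with ampicillin and mock gavage, a log2 difference of −0.26 that did not pass (limma adjusted p = 0.083).

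Both genes of isoprenoid condensation fell, where 7.54% of all genes tested did. Idi1, the isopentenyl pyrophosphate isomerase, had 56.6, 48.1 and 48.4 TPM with tributyrin, against 95.8, 83.5 and 103 TPM with ampicillin and mock gavage, and 79.9, 81.4 and 66.2 TPM with vehicle. Fdps, which makes farnesyl pyrophosphate and had the highest TPM of the members in each group, was at 112, 103 and 108 TPM with tributyrin, 159.8, 153 and 164 TPM with ampicillin and mock gavage, and 194, 172 and 145 TPM with vehicle. For both genes the tributyrin libraries did not overlap either other group, and the log2 fold changes against ampicillin with mock gavage were −0.87 ± 0.11 for Idi1 and −0.56 ± 0.095 for Fdps.

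All 3 genes that commit the pathway to sterols fell, where 7.54% of all genes tested did. Fdft1, squalene synthase, had 25.0, 26.8 and 26.2 TPM with tributyrin, against 54.8, 46.8 and 49.0 TPM with ampicillin and mock gavage, and 43.4, 42.4 and 36.7 TPM with vehicle. This was the largest fall among the 18 enzymes, with a log2 fold change of −0.92 ± 0.080 (limma adjusted p = 0.000425). Sqle, squalene epoxidase, had 49.9, 50.6 and 48.4 TPM with tributyrin, 84.1, 77.4 and 84.3 TPM with ampicillin and mock gavage, and 59.3, 65.3 and 49.2 TPM with vehicle. The tributyrin libraries of Sqle lay well below those with ampicillin and mock gavage and overlapped those with vehicle. Lss, lanosterol synthase, averaged 9.15 ± 0.664 TPM with tributyrin, 15.9 ± 0.734 TPM with ampicillin and mock gavage and 14.1 ± 1.03 TPM with vehicle (SD, n = 3 each). Fdft1 shares 774 bases of its locus with Ctsb, a cathepsin gene at a mean of 136 TPM, and the strand setting is not given in the sources used here, so reads there cannot be assigned to either gene with certainty.

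Between lanosterol and cholesterol 5 of 8 genes fell, where 7.54% of all genes tested did, and the other 3 did not pass the test. Cyp51, the lanosterol demethylase, had 40.4, 34.8 and 38.7 TPM with tributyrin, against 70.8, 65.3 and 77.0 TPM with ampicillin and mock gavage, and 54.7, 59.7 and 47.7 TPM with vehicle. Msmo1, the methylsterol monooxygenase, had 79.9, 70.2 and 76.2 TPM with tributyrin, 138, 127 and 156 TPM with ampicillin and mock gavage, and 120.1, 119 and 108 TPM with vehicle. Neither gene's tributyrin libraries overlapped another group, and their log2 fold changes against ampicillin with mock gavage were −0.89 ± 0.095 and −0.89 ± 0.083. Hsd17b7, Nsdhl and Sc5d, a ketoreductase, a decarboxylating dehydrogenase and a desaturase of the same stretch, changed by −0.71, −0.53 and −0.47 on the log2 scale.

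The remaining 3 late enzymes had values close to those of the mock-gavaged ampicillin group. Dhcr7, the reductase of the last step by one route, averaged 41.7 ± 1.33 TPM with tributyrin, 41.9 ± 2.15 TPM with ampicillin and mock gavage and 42.8 ± 3.01 TPM with vehicle. Ebp, the sterol isomerase, averaged 58.0 ± 2.28 TPM with tributyrin, 61.8 ± 0.703 TPM with ampicillin and mock gavage and 56.3 ± 1.93 TPM with vehicle. Every tributyrin library of Ebp lay below those with ampicillin and mock gavage, by −0.09 on the log2 scale (limma adjusted p = 0.18). Tm7sf2, a sterol reductase that acts just after Cyp51, had 51.5, 51.6 and 50.6 TPM with tributyrin, against 48.9, 46.9 and 44.2 TPM with ampicillin and mock gavage, and 39.4, 34.0 and 34.1 TPM with vehicle. Its tributyrin libraries were the highest 3 of the 9, although the difference from ampicillin with mock gavage, 0.13 ± 0.066 on the log2 scale, did not pass (limma adjusted p = 0.177).

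The SREBP2 control genes separated by member. Insig1, which retains SREBP2 in the endoplasmic reticulum, lies at chr5:28071412-28078662 and had 47.0, 42.9 and 39.7 TPM with tributyrin, against 110.4, 99.8 and 109.5 TPM with ampicillin and mock gavage, and 73.9, 50.0 and 54.3 TPM with vehicle. The 3 groups did not overlap, and the log2 fold change of −1.28 ± 0.13 with tributyrin against ampicillin with mock gavage (limma adjusted p = 0.000702) was the 59th lowest of the 12155 tested genes. Insig2, its paralog, which is not a known SREBP2 target, had 18.3, 19.4 and 21.4 TPM with tributyrin, 18.2, 19.9 and 19.9 TPM with ampicillin and mock gavage, and 20.8, 21.0 and 21.8 TPM with vehicle, and passed in none of the 3 comparisons. A predicted non-coding gene that is not listed in the deposited table spans the Insig1 locus, so its reads, if any, could be counted with Insig1.

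The ratio of Insig1 to Insig2 TPM was 2.57, 2.21 and 1.86 in the tributyrin libraries, against 6.06, 5.03 and 5.50 in the mock-gavaged ampicillin libraries, and 3.56, 2.38 and 2.48 in the vehicle libraries. The mock-gavaged ampicillin libraries had the highest 3 ratios, while the tributyrin and vehicle libraries overlapped. In a two-sided exact permutation test of the log2 ratio, tributyrin against mock gavage and ampicillin against vehicle each gave p = 0.1, which is the smallest that 3 libraries against 3 allow (0.15 after adjustment over the 3 comparisons), and tributyrin against vehicle gave p = 0.3.

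Srebf2, the gene of SREBP2 itself, had 76.1, 78.7 and 66.0 TPM with tributyrin, against 95.8, 93.1 and 89.2 TPM with ampicillin and mock gavage, and 81.9, 92.6 and 77.1 TPM with vehicle. The tributyrin libraries lay below the mock-gavaged ampicillin libraries and overlapped those with vehicle. Its log2 fold change against ampicillin with mock gavage was −0.33 ± 0.084 (limma adjusted p = 0.0236), and the call was lost without ampicillin replicate 1 (adjusted p = 0.0778) or replicate 2 (adjusted p = 0.07). Scap, the escort, averaged 36.5 ± 2.12 TPM with tributyrin, 36.0 ± 1.05 TPM with ampicillin and mock gavage and 36.7 ± 0.281 TPM with vehicle, a log2 difference of 0.02 between the first 2 groups that did not pass.

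**Figure D2:**
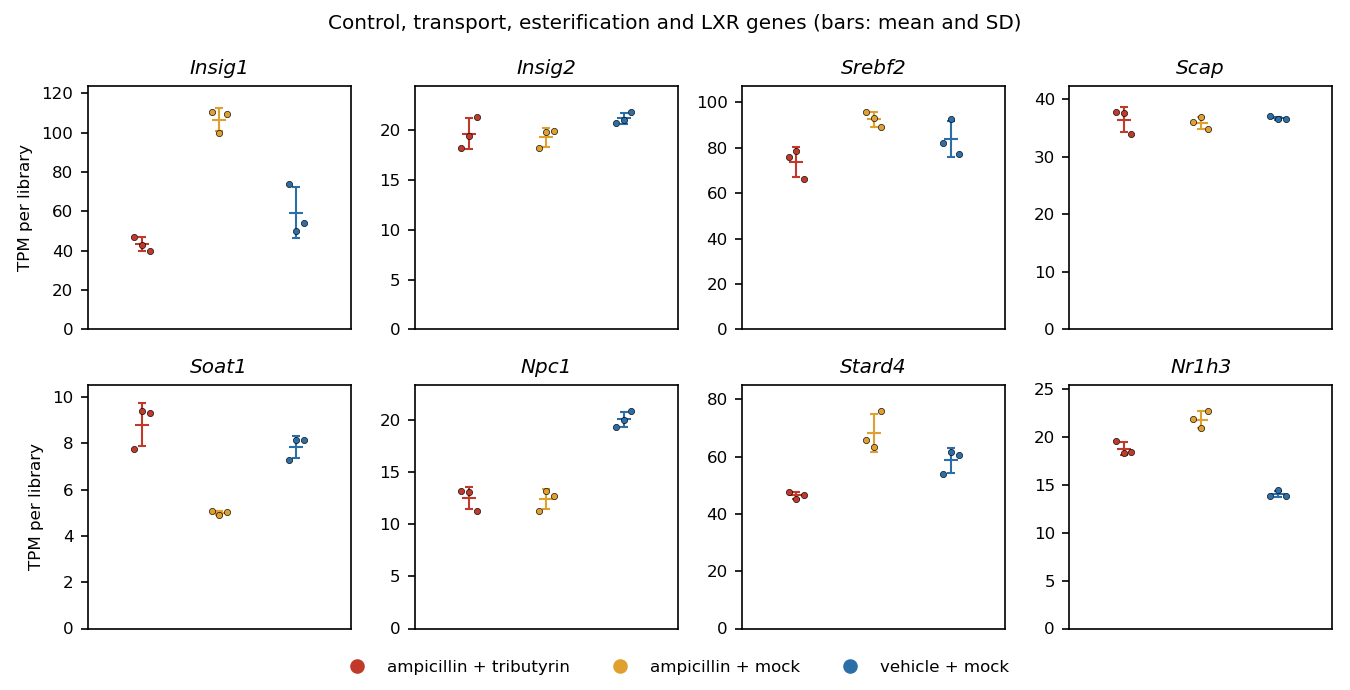
TPM of 8 control, transport, esterification and liver X receptor genes in each library (points), with mean and SD of the 3 libraries of a group and each axis starting at 0. Insig1 separates all 3 groups while Insig2 and Scap lie at similar levels in all of them, and Soat1 is lowest with ampicillin and mock gavage.

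Of 5 transport and esterification genes, 1 fell and 1 rose with tributyrin, where 7.54% of all genes tested fell and 15.6% rose. The other 3 did not pass, and counts this small cannot be told apart from those shares. Stard4, a soluble cholesterol carrier that is known as an SREBP2 target, had 47.7, 45.3 and 46.7 TPM with tributyrin, against 65.8, 63.3 and 75.8 TPM with ampicillin and mock gavage, and 53.8, 61.6 and 60.6 TPM with vehicle (log2 fold change −0.54 ± 0.077 against ampicillin with mock gavage). Soat1, which esterifies cholesterol for storage, had 7.74, 9.38 and 9.30 TPM with tributyrin, against 5.05, 4.92 and 5.01 TPM with ampicillin and mock gavage, and 7.28, 8.12 and 8.13 TPM with vehicle. Soat1 was the member that rose, by 0.71 ± 0.079 on the log2 scale (limma adjusted p = 0.000942), and its ampicillin and mock libraries were the lowest 3 of the 9. Npc1 and Npc2, which pass cholesterol out of lysosomes, and Mylip, the ubiquitin ligase that degrades lipoprotein receptors, had log2 differences of 0.01, −0.02 and 0.04 with tributyrin and did not pass.

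On the efflux side the receptor genes were expressed and the exporters barely so. Nr1h3, liver X receptor alpha, had 19.6, 18.3 and 18.4 TPM with tributyrin, against 21.9, 20.9 and 22.7 TPM with ampicillin and mock gavage, and 13.8, 14.4 and 13.8 TPM with vehicle. The groups did not overlap, and Nr1h3 fell by 0.21 on the log2 scale with tributyrin against ampicillin with mock gavage (limma adjusted p = 0.0202), a call lost without ampicillin replicate 1, ampicillin replicate 3 or tributyrin replicate 2 (adjusted p = 0.0639, 0.0691 and 0.0751). Nr1h2, liver X receptor beta, averaged 53.8 ± 4.73 TPM with tributyrin, 57.9 ± 4.84 TPM with ampicillin and mock gavage and 54.6 ± 2.07 TPM with vehicle, and passed in no comparison.

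Abca1, the cholesterol exporter to apolipoprotein A-I, had 0.120, 0.123 and 0.137 TPM with tributyrin, 0.121, 0.177 and 0.115 TPM with ampicillin and mock gavage, and 0.216, 0.194 and 0.378 TPM with vehicle. Abcg1, which exports cholesterol to high-density lipoprotein, had 0.738, 0.674 and 0.291 TPM with tributyrin, 0.331, 0.424 and 0.329 TPM with ampicillin and mock gavage, and 0.239, 0.509 and 0.349 TPM with vehicle. Vehicle libraries were the highest 3 for Abca1 and the groups overlapped for Abcg1. In a fit with no filter on level neither gene reached an adjusted p under 0.05 in any comparison (limma, 0.0673 the lowest for Abca1 and 0.311 for Abcg1). At values this low the log2(TPM + 1) scale flattens any change, so that fit could not decide whether the exporters changed. Of the 2 tested genes of the efflux side, both receptor genes, 1 fell with tributyrin, Nr1h3, where 7.54% of all genes tested fell. Among the synthesis genes 14 of 18 fell. With only 2 genes tested, neither of them an exporter, the efflux side cannot be compared with synthesis.

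**Figure D3:**
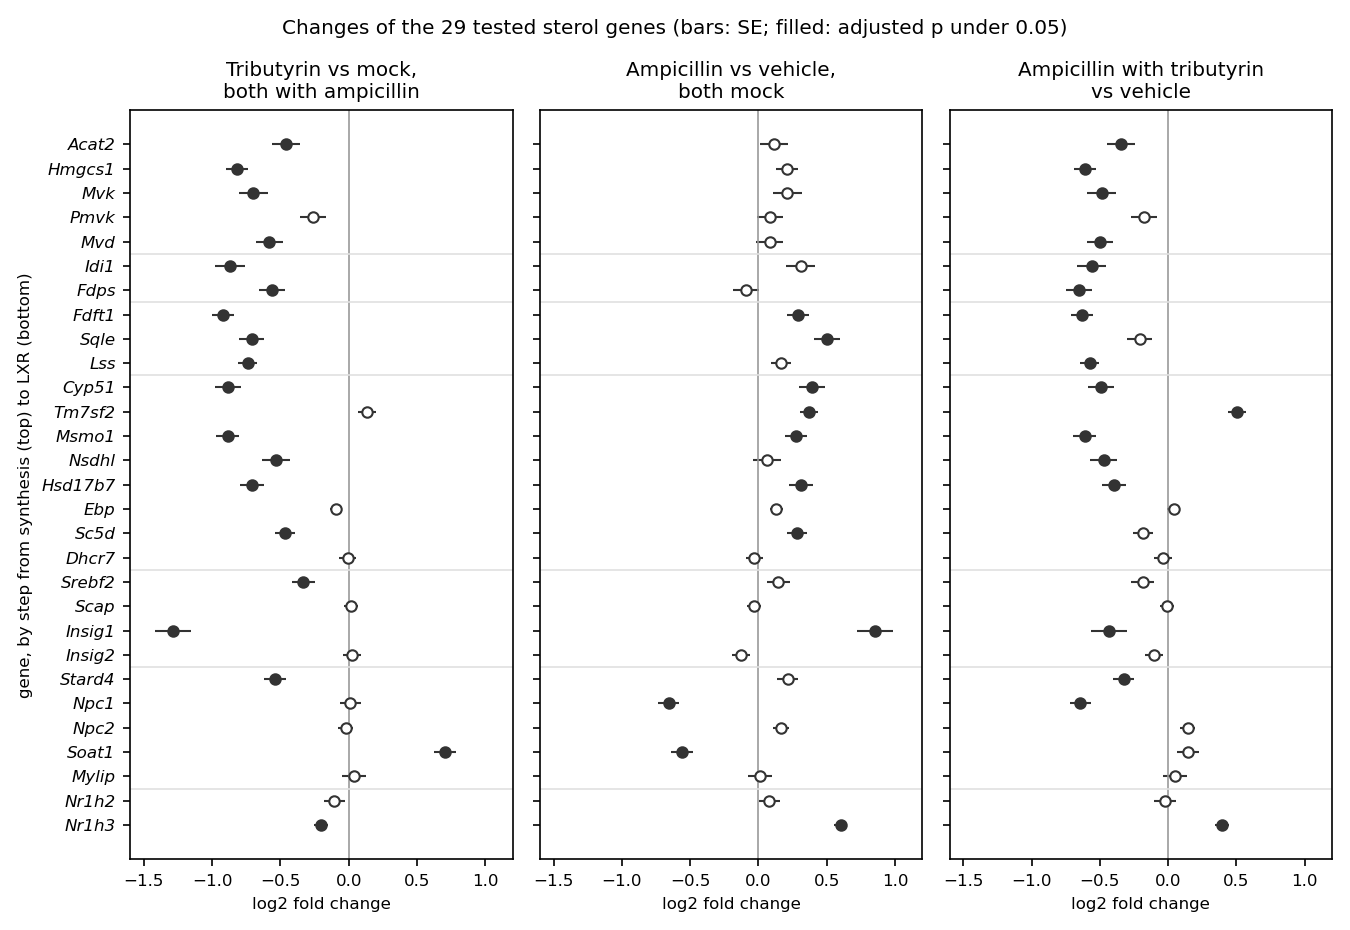
Log2 fold changes of the 29 tested members in the 3 comparisons (points, bars SE, filled where the limma adjusted p is under 0.05), in pathway order. With tributyrin against mock gavage the filled points lie left of 0 except Soat1, whereas with ampicillin against vehicle those of the synthesis genes lie right of 0.

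The promoters of members that fell are shown because SREBP2 acts at a short sterol element beside CCAAT and GC boxes bound by the cofactors NF-Y and Sp1. RefSeq windows (GRCm38.p6, the same build as mm10) of 250 bases before to 50 after a start were held for 25 of the 31 members, of which 14 fell with tributyrin and 11 did not. Both strands of the first window of each gene were searched for TCACNCCAC, the core of the sterol element, for CCAAT, and for GGGCGG, the GC box. Capitals mark a core, a CCAAT box or a GC box as read on either strand, and in Msmo1 and Srebf2, which lack the full core, the core without its last base, TCACNCCA. Thus ATTGG and CCGCCC are the reverse readings. Insig1 is given as the member with the largest change, Hmgcs1 as the member with the full core, and Msmo1 and Srebf2 as the others with the shorter one. Insig1 is printed for all 250 bases upstream, the others only around their core and upstream CCAAT boxes. Boxes outside the printed stretches are not shown. The whole window held 5 GC boxes in Srebf2, and 3 GC and 4 CCAAT boxes in Hmgcs1. Insig1 is chr5:28071162-28071411 on the plus strand, Msmo1 chr8:64733617-64733767 on the minus strand, Hmgcs1 chr13:119690102-119690322 on the plus strand and Srebf2 chr15:82147095-82147150 on the plus strand, each written 5′ to 3′ along its gene.
Insig1: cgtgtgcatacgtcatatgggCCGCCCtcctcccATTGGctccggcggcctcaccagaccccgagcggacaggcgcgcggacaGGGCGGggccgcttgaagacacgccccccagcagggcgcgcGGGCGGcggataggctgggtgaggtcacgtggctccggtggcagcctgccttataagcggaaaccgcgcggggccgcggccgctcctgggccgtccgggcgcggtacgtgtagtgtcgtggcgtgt
Msmo1: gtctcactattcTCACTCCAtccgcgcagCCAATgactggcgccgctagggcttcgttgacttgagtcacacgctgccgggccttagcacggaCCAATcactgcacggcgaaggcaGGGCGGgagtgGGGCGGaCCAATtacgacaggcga
Hmgcs1: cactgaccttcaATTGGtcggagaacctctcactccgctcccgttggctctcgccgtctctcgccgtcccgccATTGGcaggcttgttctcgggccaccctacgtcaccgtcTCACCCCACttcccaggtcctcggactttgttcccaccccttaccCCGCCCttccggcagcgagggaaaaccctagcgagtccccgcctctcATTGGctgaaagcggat
Srebf2: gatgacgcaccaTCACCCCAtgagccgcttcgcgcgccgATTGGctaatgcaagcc

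The full core TCACNCCAC was in 1 of the 25 windows, that of Hmgcs1, 137 bases upstream, beside 1.03% of the first windows of tested genes and 1.24% of all 32851 windows in the table. The core without its last base, TCACNCCA, a search added after the longer one had been seen and which contains every match of it, was in 3 of 25 windows, beside 3.45% of the first windows of tested genes and 4.36% of all windows. Those 3, Hmgcs1, Msmo1 at 177 bases and Srebf2 at 162 bases upstream, are all among the 14 members with a window that fell with tributyrin. A CCAAT box was in 12 of the 14 windows of members that fell and in 7 of the 11 others, beside 39.3% of the first windows of tested genes. A GC box was in 13 of the 14 and 8 of the 11, beside 65.0% of tested genes. In the printed Insig1 stretch there was no core of either length, 1 CCAAT box and 3 GC boxes, and in that of Msmo1 there were 1 shorter core, 3 CCAAT boxes and 2 GC boxes. These are matches of letters within a fixed window, and binding was not measured.

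Ampicillin alone moved fewer of these genes, mostly upward. Of the 29 members tested, 9 rose and 2 fell with ampicillin against vehicle, both with mock gavage, where 11% of all genes tested rose and 10.2% fell (limma, adjusted p under 0.05). The rises comprised 7 of the 18 synthesis genes, together with Insig1 and Nr1h3, and none of the 18 fell. The synthesis median was 0.21 on the log2 scale, beside 0.02 over all genes. The count of 9 was 4 without ampicillin replicate 1, without ampicillin replicate 3 or without vehicle replicate 3, and vehicle replicate 3 had the lowest value of its group for 16 of the 18 synthesis genes.

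By step, 0 of 5 mevalonate, 0 of 2 isoprenoid, 2 of 3 squalene and 5 of 8 late genes were called higher with ampicillin. Of all genes tested 11% were called higher. Sqle rose by 0.50 ± 0.093 on the log2 scale (limma adjusted p = 0.00594), with its ampicillin libraries all above those of vehicle, as given above. Cyp51 rose by 0.39 ± 0.095 and Tm7sf2 by 0.37 ± 0.066, while Hsd17b7, Fdft1, Sc5d and Msmo1 rose by 0.31, 0.29, 0.28 and 0.27. Of these 7 calls, those of Sqle and Tm7sf2 held under all 20 alternative settings. The other 5 were each lost without ampicillin replicate 1, without ampicillin replicate 3 and without vehicle replicate 3, with adjusted p of 0.0584 to 0.147. The Msmo1 call held in 5 of the 20 settings and was also lost with no filter on level, under 2 of the 3 other scalings, with array weights, with no trend, with only the groups compared and with the replicate block. Hmgcs1 and Idi1, from the earlier steps, had log2 differences of 0.21 and 0.31 that did not pass (limma adjusted p = 0.101 and 0.0775). Fdps had −0.09 (adjusted p = 0.55). The Idi1 difference was larger than those of the called Fdft1, Sc5d and Msmo1, and its ampicillin libraries all lay above those of vehicle. All 5 mevalonate genes had positive differences, so the step counts depend on the threshold. Whether the late steps differed from the early ones was not tested.

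Insig1 rose by 0.85 ± 0.13 on the log2 scale with ampicillin (limma adjusted p = 0.00266) and Nr1h3 by 0.60 ± 0.050 (adjusted p = 0.000123), while Srebf2, at 0.15, did not pass. The 2 members that fell were Npc1 and Soat1. Npc1, the lysosomal cholesterol transporter, had 11.3, 13.2 and 12.7 TPM with ampicillin and mock gavage and 13.1, 13.1 and 11.3 TPM with tributyrin, against 19.3, 19.98 and 20.8 TPM with vehicle. Both ampicillin groups lay below vehicle and overlapped each other, and the log2 fold change of ampicillin against vehicle was −0.66 ± 0.076 (limma adjusted p = 0.000609). Soat1 fell by 0.56 on the log2 scale (limma adjusted p = 0.00161). Npc1 shares 8982 bases of its locus with Rmc1, at a mean of 28.4 TPM, so its level is uncertain in the same way as that of Fdft1, and Tm7sf2 and Nr1h3 share 9 and 18 bases with Vps51 and Acp2. The myeloid, endothelial and small intestinal marker sums were also higher in vehicle than in ampicillin libraries. The myeloid difference lay in C1qa and Cd14, while Cd68 and Lyz2 averaged lowest with vehicle. The endothelial sum, carried by Pecam1 with Cdh5 and Kdr near 0, was 0.541 to 0.673 TPM with ampicillin and mock gavage and 3.53 to 4.04 TPM with vehicle, and the small intestinal sum was 15.3 to 17.8 TPM with ampicillin and mock gavage and 42.8 to 416.7 TPM with vehicle. Their part in the result was not tested. Without vehicle replicate 2, the library with the most Fabp6, 8 members rose and 2 fell. Fabp6 was also at 12.3 and 53.4 TPM in vehicle replicates 1 and 3, against at most 3.63 TPM with ampicillin and mock gavage. Leaving out replicate 2 therefore did not remove this difference between the groups.

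Set directly against vehicle, the tributyrin group on ampicillin had 15 of 29 members lower and 2 higher, where 9.21% of all genes tested were lower and 19.1% higher. Of all called genes 67.5% were higher, against 49.2% with each library shifted to the same median and 50.3% after quantile normalization, under which 17 and 16 members were lower. These comparisons share libraries, so their values are given side by side and their likeness is not a result. Of the synthesis enzymes 12 of 18 were lower and 1, Tm7sf2, was higher, with a median of −0.48 beside 0.08 over all genes. Fdps differed most, by −0.65 on the log2 scale, followed by Fdft1 at −0.63 and Msmo1 and Hmgcs1 at −0.61, and for these 4 genes no tributyrin library reached the lowest vehicle library. Insig1 was lower by −0.43 ± 0.13 (limma adjusted p = 0.0419), a call that held in 10 of the 20 alternatives. It was lost without any 1 library except vehicle replicate 2, and without vehicle replicate 1 the difference was −0.27 (adjusted p = 0.0603). Sqle and Sc5d, both lower with tributyrin than with ampicillin and mock gavage, differed from vehicle by −0.21 and −0.19 and did not pass (limma adjusted p = 0.127 and 0.0893). Tm7sf2 rose by 0.51 ± 0.066 (limma adjusted p = 0.0013) and Nr1h3 by 0.40 ± 0.050 (adjusted p = 0.00111). Npc1 fell by 0.64 (adjusted p = 0.000828), and Soat1, at 0.15, did not pass.

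**Figure D4:**
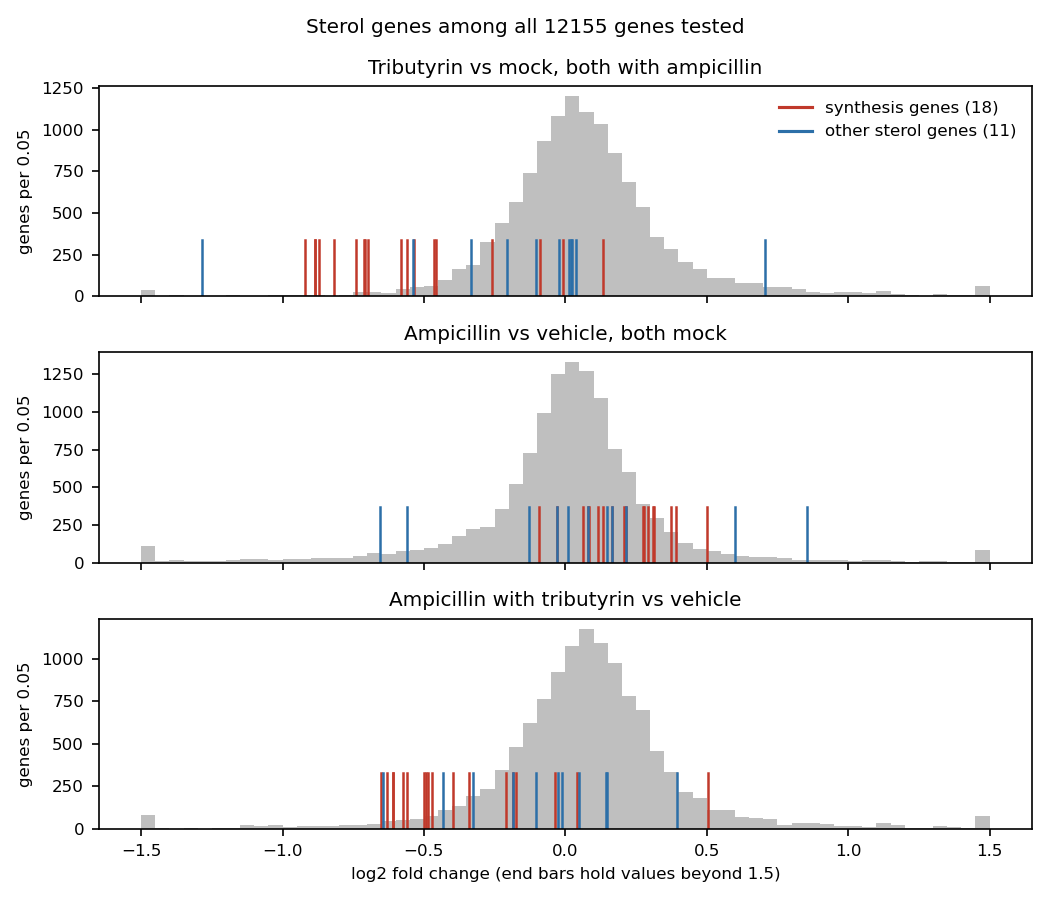
Histogram of log2 fold changes of all 12155 tested genes (grey, bins of 0.05) in the 3 comparisons, with the 18 synthesis genes (red lines) and the 11 other tested members (blue lines) marked. With tributyrin against mock gavage most synthesis lines lie left of the bulk of genes and Insig1 lies furthest left at −1.28, and with ampicillin against vehicle they lie within or right of it.

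Read across the 9 libraries, the members form a small number of patterns. For 14 of the 31 members, 12 synthesis enzymes with Insig1 and Stard4, each tributyrin library was below every other library, which held for 5.46% of all genes tested. For 12 of the 31 each mock-gavaged ampicillin library was above every other library, against 8.09% of all genes tested, among them the synthesis genes Idi1, Fdft1, Sqle, Lss, Cyp51, Msmo1, Hsd17b7, Ebp and Sc5d. Soat1 was the only member whose mock-gavaged ampicillin libraries were the lowest 3 (9.84% of all genes), and Tm7sf2 the only one whose tributyrin libraries were the highest 3 (15.3% of all genes). Vehicle libraries were the lowest 3 for Tm7sf2 and Nr1h3 (12.1% of all genes) and the highest 3 for Npc1 and Abca1 (7.31% of all genes), so these 4 patterns were no more common among the members than among all genes.

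Genes around the pathway were counted from 6 further lists, 63 genes of which 57 were tested. With tributyrin against ampicillin and mock gavage, 8 rose and 4 fell, where 15.6% of all genes tested rose and 7.54% fell, and the median was 0.04 beside 0.05 over all genes. As a whole the lists were thus near the background, and the genes below are given as single values. In the list of acetyl-CoA supply and sterol enzyme partners, 2 of 6 rose and 1 fell. Acss2 rose by 0.27 and Por by 0.24 (limma adjusted p = 0.0126 and 0.0188). The gene that fell was Aacs, acetoacetyl-CoA synthetase, which feeds ketone bodies into sterol synthesis, and its fall was the largest of the 57 genes. Aacs had 38.1, 37.3 and 37.5 TPM with tributyrin, against 55.1, 52.6 and 55.3 TPM with ampicillin and mock gavage, and 58.7, 53.6 and 50.2 TPM with vehicle. Its tributyrin libraries were the lowest 3 (log2 fold change −0.52 ± 0.059 against ampicillin with mock gavage, limma adjusted p = 0.000994). Dhdds was the 1 gene of 12 on the isoprenoid branches, which lead to ubiquinone, dolichol and prenylated proteins, to rise with tributyrin, by 0.21, and the other 11 did not pass. Of 9 genes of SREBP processing and endoplasmic reticulum degradation, Erlin1, whose product restrains SREBP activation, fell by 0.24 and the other 8 did not pass.

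Of 4 ester storage and hydrolysis genes tested, 3 rose with tributyrin, where 15.6% of all genes rose. Plin2, a lipid droplet coat protein, had 109.8, 120.3 and 126 TPM with tributyrin, against 95.7, 96.6 and 96.6 TPM with ampicillin and mock gavage, and 83.1, 91.7 and 97.3 TPM with vehicle. Plin3, a related coat protein, averaged 79.0 ± 3.89 TPM with tributyrin, 66.0 ± 3.44 TPM with ampicillin and mock gavage and 63.4 ± 4.89 TPM with vehicle. Nceh1, a hydrolase of cholesterol esters and so opposed to Soat1, had 27.3, 26.1 and 28.2 TPM with tributyrin, 18.7, 21.7 and 19.95 TPM with ampicillin and mock gavage, and 32.2, 36.0 and 35.5 TPM with vehicle. The mock-gavaged ampicillin libraries were thus the lowest 3 for Nceh1, as they were for Soat1 and for 9.84% of all genes tested. Nceh1 rose by 0.42 with tributyrin against ampicillin with mock gavage and fell by 0.75 with ampicillin against vehicle (limma adjusted p = 0.00388 and 0.000172).

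Among other sterol transporters 1 of 16 rose and 2 fell with tributyrin against ampicillin and mock gavage, near the 15.6% and 7.54% of all genes that did so. Gramd1b, which carries plasma membrane cholesterol to the endoplasmic reticulum, averaged 8.04 ± 0.191 TPM with tributyrin, 11.0 ± 0.788 TPM with ampicillin and mock gavage and 6.37 ± 0.839 TPM with vehicle. It therefore had its highest libraries with ampicillin and mock gavage, as did Insig1 and 8.09% of all genes tested. Lipa, the lysosomal lipase that frees cholesterol from its esters, fell by 0.25, just inside the threshold (limma adjusted p = 0.0495). Scarb1, a high-density lipoprotein receptor, rose by 0.42 from a low level (adjusted p = 0.0369). Of 10 oxysterol and liver X receptor genes, Pltp, a phospholipid transfer protein and liver X receptor target, rose by 0.66. Pltp averaged 1.79 ± 0.493 TPM with tributyrin, 0.753 ± 0.127 TPM with ampicillin and mock gavage and 2.27 ± 0.202 TPM with vehicle. It reached the mean of 1 TPM required for testing only through the tributyrin and vehicle libraries, so its calls rest on values near that floor.

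With ampicillin against vehicle the same 57 genes gave 3 higher and 13 lower, where 11% of all genes tested rose and 10.2% fell, and a median of −0.08 beside 0.02 over all genes. Gramd1b rose by 0.70, Pdss1, of ubiquinone synthesis, by 0.32, and Lima1, an actin-binding protein of sterol uptake, by 0.25. In the oxysterol and liver X receptor list 4 of 10 fell, where 10.2% of all genes did. Cyp27a1, which oxidises cholesterol, fell by 0.96, and Smpdl3a, a liver X receptor target in human macrophages, fell by 0.74. Pltp fell by 0.90, to a mean below the 1 TPM required for testing. Rxrb, a partner receptor of the liver X receptors, fell by 0.22. Nr1h3 itself rose, as given above. Smpdl3a had 47.7, 61.8 and 52.6 TPM with ampicillin and mock gavage and 58.0, 54.0 and 54.6 TPM with tributyrin, against 84.1, 95.2 and 91.4 TPM with vehicle, so both ampicillin groups lay below vehicle. The myeloid marker sum was also lower in both ampicillin groups than in vehicle, through C1qa and Cd14. Cd68 and Lyz2 averaged higher in both ampicillin groups than in vehicle. The part of myeloid cells in these values was not tested.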

How the data were processed

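The 31 members and the lists around them were chosen with earlier results of these data known. The values are TPM, computed by the authors for each gene in each library. The submitters' processing notes name mm10, DESeq2 1.20.0 and Salmon 0.8.2 without saying what each did. The index, annotation, transcript-to-gene step, filters and strand setting were not given in the sources used here. TPM sums were 999833 to 999866 per library, so depth is unknown, no counting interval could be given and no count model was used. TPM is relative, so a rise in some transcripts lowers others. All 9 value columns matched a sample title, leaving 0 unused.

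Genes with a mean of at least 1 TPM over the 9 libraries were kept. Values were taken as log2(TPM + 1), a scale that understates changes of low genes. In limma 3.58.1 (R 4.3.3), the 3 group means were estimated over the 9 libraries together, with 6 residual degrees of freedom, variances moderated along a trend on mean level and no replicate block. Calls were two-sided at a Benjamini-Hochberg adjusted p under 0.05 over all tested genes. The procedure was tested on simulated data. All members could be named, and up to 4 called genes of each other list per comparison by size of change. For Insig1 to Insig2 ratios an exact permutation test was used. Gene IDs were matched to RefSeq GRCm38.p6, 24045 of 24091 of them, and positions are those of whole genes. Another 20 settings were tried: pseudocounts, filters, scalings, array weights, no trend, only the groups compared, a replicate block and each library left out. Python 3.11.15 and matplotlib 3.10.9 drew the figures.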

Additional observations from a re-analysis of the deposited data

How the results depend on the processing

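No direction reversed among called members under the 20 alternatives. With tributyrin against mock gavage, 18 members fell, 18 to 19 under other settings and 15 to 19 without any 1 library, and 1 rose under each. With ampicillin against vehicle, 9 rose, 7 to 10 under other settings and 4 to 9 without any 1 library, and 2 fell under each. For ampicillin with tributyrin against vehicle, 15 fell (13 to 17, and 11 to 14 without 1 library) and 2 rose (2, and 2 to 3 without 1 library). Calls past the threshold under all 20 alternatives numbered 16 of 19, 6 of 11 and 13 of 17 in these comparisons. Whether replicate numbers pair the libraries could not be decided with 3 libraries a group. Same-numbered deviations correlated at −0.0498 to 0.108, with 1 of 9 pairs over 0.1, and differently numbered ones at −0.117 to 0.0748. With the replicate block 18 members fell with tributyrin against mock gavage, 8 rose with ampicillin against vehicle and 16 fell with ampicillin and tributyrin against vehicle, and 3 libraries were closest to their own number in both other groups. Over all genes, array weights gave 4271 calls against 2819 with tributyrin, and 1756, 1681 and 1587 were called without ampicillin replicate 1, ampicillin replicate 2 and tributyrin replicate 2. For ampicillin with tributyrin against vehicle, 2093 against 3444 were called without tributyrin replicate 2. The cause was not tested. With 3 libraries a group and depth unknown, small changes and the exporters below 1 TPM could not be resolved.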
